A study of Homo sapiens with 2 samples.

Results

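The genes described are 7 members of the SIX-family, EYA and DACH genes, namely SIX2, SIX4, EYA1, EYA2, EYA4, DACH1 and DACH2, found by their exact symbols among the 36601 genes listed in the deposited matrices. The data are single-cell RNA counts from human inner ear organoids at day 40 of culture. They were grown from WA25, an established line of human embryonic stem cells in which a nuclear tdTomato reporter marks SOX2. The 2 groups are GelNB-CH, a gelatin hydrogel polymerised by light with 0.1 wt% of the crosslinker PEG4SH, and Matrigel, a basement membrane extract. Each group is 1 library of reporter-positive cells sorted after 90 min in Accutase, so cells without the reporter are not represented and every value describes these libraries. The culture description attached to each library is the same one, with GelNB-CH embedding on day 11 and 0.02% oxidised dextran (oDex) on day 15, so the embedding of the library labelled Matrigel is known here from its title and treatment label only.

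SIX-family proteins are homeodomain transcription factors that bind DNA, and EYA proteins are tyrosine phosphatases that join them on chromatin as coactivators. DACH proteins are nuclear cofactors that repress or modulate the same complexes. In vertebrate embryos the network marks the preplacodal ectoderm, from which the otic placode forms, and loss of EYA1 or EYA4 function causes hearing loss in humans.

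Cells were assigned to a lineage by their unique molecular identifiers (UMIs) of 1 marker gene. At least 5 UMIs of OC90, an otoconial matrix gene, defined otic cells. At least 3 UMIs of COL1A2, a collagen gene, defined mesenchyme, at least 3 of CDH19, a cadherin of Schwann cell precursors, defined glia, and at least 5 of STMN2, a gene of growing axons, defined neurons. A cell that met several rules was kept apart. After filtering, 18253 GelNB-CH and 9800 Matrigel cells remained, with median depths of 8558 and 14002 UMIs, and 78 barcodes occurred in both libraries. The GelNB-CH library held 6124 otic cells, 6111 mesenchymal cells, 275 glial cells and 934 neurons, against 2203, 3642, 236 and 506 in the Matrigel library. The names were checked on summed levels of other listed markers. The 9 otic markers summed to 1411 and 1498 CPM in otic cells of GelNB-CH and Matrigel and to at most 137 CPM in the other lineages, and the 8 mesenchymal markers to 3421 and 3572 CPM in mesenchyme and at most 872 CPM elsewhere. The 7 glial markers summed to 2998 and 2865 CPM in glia and at most 936 CPM elsewhere, and the 7 neuronal markers to 5289 and 4312 CPM in neurons and at most 218 CPM elsewhere. Cartilage markers, 6 genes, were not confined to mesenchyme. They summed to 2536 and 2824 CPM there and to 1311 and 1090 CPM in otic cells. In glia they summed to 746 and 284 CPM, and in neurons to 63.6 and 33.1 CPM. Most cells that met the CDH19 rule also met the COL1A2 rule, 412 of 709 of the GelNB-CH ones and 1616 of 1899 of the Matrigel ones, so glial values are given for both kinds of cell. Levels are CPM, the counts of a gene scaled to the same total of UMIs in each lineage, which are not corrected for transcript length or capture and are compared within a gene and not between genes. Intervals are exact 95% intervals and cover counting error only, since 1 library per group leaves no replicate and no test.

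The sequences printed here are the 250 bases before an annotated start, from RefSeq on GRCh38.p14, for 3 of the genes whose levels set otic cells apart by OTX2 (SIX2, DACH1, DACH2) and for the other SIX-family member (SIX4). Capitals mark the GC box GGGCGG on either strand. The windows are chr2:45009453-45009702 (minus strand), chr14:60724352-60724601 (minus strand), chr13:71867205-71867454 (minus strand) and chrX:86148201-86148450 (plus strand).
SIX2: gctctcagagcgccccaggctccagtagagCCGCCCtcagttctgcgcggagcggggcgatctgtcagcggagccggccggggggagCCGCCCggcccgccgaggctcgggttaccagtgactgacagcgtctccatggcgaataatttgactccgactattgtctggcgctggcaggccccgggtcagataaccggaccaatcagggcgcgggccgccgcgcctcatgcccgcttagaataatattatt
SIX4: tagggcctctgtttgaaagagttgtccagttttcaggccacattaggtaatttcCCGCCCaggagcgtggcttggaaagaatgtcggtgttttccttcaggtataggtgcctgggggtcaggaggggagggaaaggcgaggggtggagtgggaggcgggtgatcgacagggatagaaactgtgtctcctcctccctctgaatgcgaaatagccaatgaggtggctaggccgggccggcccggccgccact
DACH1: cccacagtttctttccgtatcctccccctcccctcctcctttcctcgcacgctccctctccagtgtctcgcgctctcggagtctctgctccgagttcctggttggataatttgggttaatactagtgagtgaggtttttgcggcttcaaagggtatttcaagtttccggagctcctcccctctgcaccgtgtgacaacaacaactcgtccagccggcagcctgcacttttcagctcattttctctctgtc
DACH2: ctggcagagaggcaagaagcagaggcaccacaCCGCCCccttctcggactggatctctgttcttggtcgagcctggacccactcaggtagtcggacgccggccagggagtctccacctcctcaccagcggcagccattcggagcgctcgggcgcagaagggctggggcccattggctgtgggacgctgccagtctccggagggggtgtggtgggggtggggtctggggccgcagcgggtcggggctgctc
Searched on both strands, the GC box occurred at 2 places in the SIX2 window, at 1 place each in the SIX4 and DACH2 windows and at none in the DACH1 window, and 42.6% of 35116 promoter windows of that length held it. The CCAAT box (CCAAT) occurred once each in SIX2, SIX4 and DACH2 and not in DACH1, against 32.0% of all windows. None of the 4 windows held the E-box CANNTG (61.8% of all windows), the MEF3 site TCAGGTTTC (0.288%) or TAATTA (4.35%). The GC content was 65.6% for SIX2, 58% for SIX4, 54% for DACH1 and 69.2% for DACH2, against a median of 58% over all windows. Of the windows not printed, that of EYA4, which overlaps an exon, held 3 GC boxes, 1 E-box and no CCAAT box, at a GC content of 75.2%. A second DACH2 start had a window with no GC box, 2 E-boxes and 2 CCAAT boxes, at 35.2%. These matches describe letters and are not measured binding sites.

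Each lineage carried its own combination of members. SIX2 was highest in mesenchyme, EYA4, DACH1 and DACH2 were highest in otic cells, and EYA2 was highest in neurons, in both libraries. EYA1 was highest in otic cells of GelNB-CH and in neurons of Matrigel. SIX4 was highest in otic cells of GelNB-CH, and its Matrigel levels in neurons and otic cells had overlapping intervals. By the level alone, the highest lineage was shared between the libraries for 5 of 7 members, against 73.5% of all 12648 genes compared, and among cells of 8000 to 16000 UMIs it was shared for 7. EYA4 and DACH2 were at least 2-fold higher in otic cells than in each other lineage in both libraries, which 3.8% of genes were, and EYA2 was at least 2-fold higher in neurons than elsewhere, as were 6.61% of genes. Glia was the lineage with the fewest member transcripts. At an equal depth of 5000 UMIs per cell, 68.5% of GelNB-CH and 76.9% of Matrigel glia had no UMI of any member, against 1.11% and 1.36% of otic cells.

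**Figure D1:**
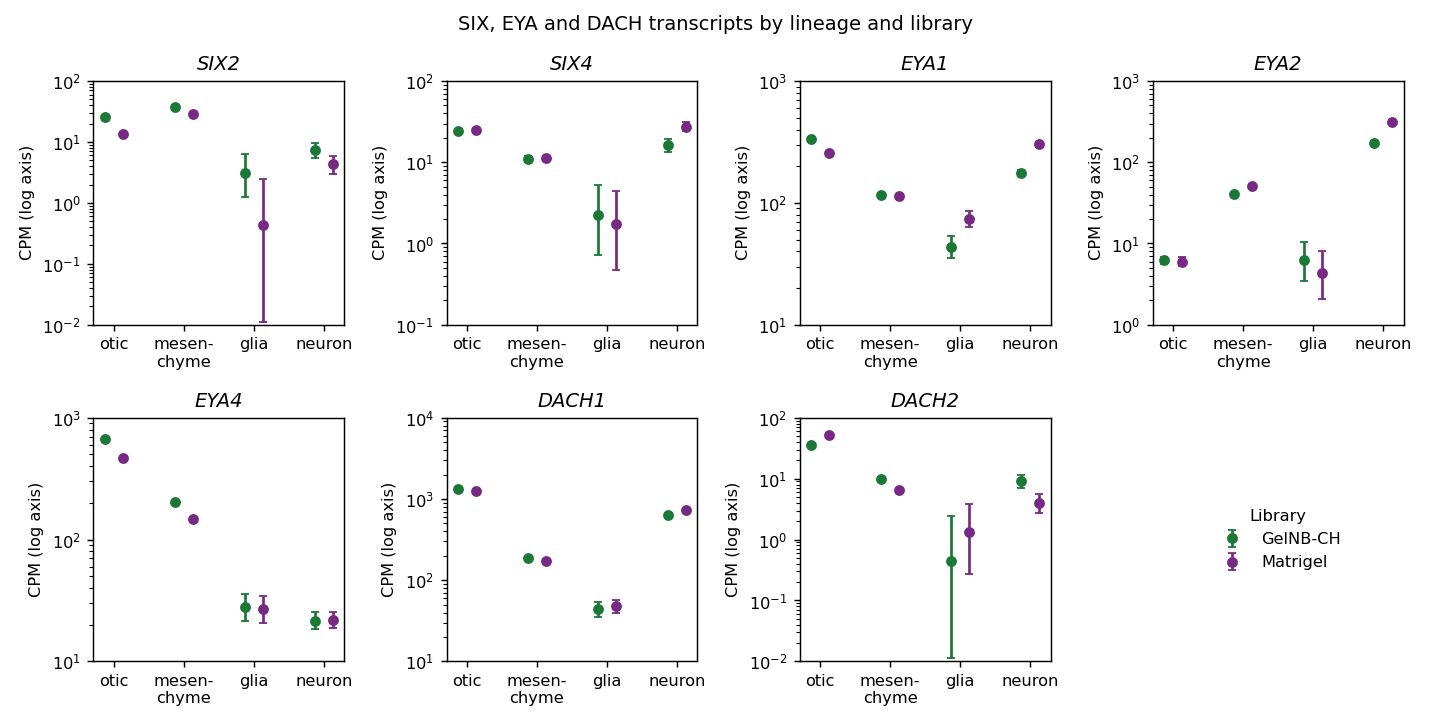
Level of each member (CPM, log axis) in otic cells, mesenchyme, glia and neurons of the GelNB-CH (green) and Matrigel (purple) libraries, with exact Poisson 95% intervals. SIX2 peaks in mesenchyme at 38.1 and 29.1 CPM, EYA2 in neurons at 171 and 314 CPM, and EYA4, DACH1 and DACH2 in otic cells.

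SIX2, the homeodomain factor that maintains nephron progenitors in the kidney, was present at 38.1 CPM in GelNB-CH, against 29.1 CPM in Matrigel mesenchyme. The gene spans chr2:45005161-45009430 on the minus strand in the GENCODE 29 annotation of GRCh38. Its otic levels were 25.8 CPM (24.6 to 26.9) in GelNB-CH, against 13.6 CPM (12.6 to 14.8) in Matrigel. Neurons held 7.31 and 4.29 CPM, and glia 3.12 and 0.436 CPM, the glial values resting on 7 UMIs in GelNB-CH and 1 in Matrigel. Mesenchyme thus exceeded otic cells 1.48-fold in GelNB-CH (1.39 to 1.57) and 2.14-fold in Matrigel (1.94 to 2.35), the order being the same in both libraries down to the few glial counts. The otic ratio of GelNB-CH to Matrigel was 1.89 (1.72 to 2.08), the largest otic ratio of any member. Among cells of 8000 to 16000 UMIs that ratio was 1.21, and the part of depth in it was not tested.

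SIX4, a homeodomain factor expressed in cranial placodes and ganglia, was at 24.5 CPM in GelNB-CH, against 25.1 CPM in Matrigel otic cells. The gene spans chr14:60709528-60724348 on the minus strand. In neurons it was at 16.2 CPM (13.5 to 19.4) in GelNB-CH, against 27.5 CPM (24.0 to 31.3) in Matrigel. That ratio of 0.590 was 1.12 among cells of 8000 to 16000 UMIs, on the other side of 1. Mesenchyme held 11 and 11.2 CPM, and glia 2.23 and 1.74 CPM from 5 and 4 UMIs. The otic and mesenchymal levels were nearly equal between the libraries, with ratios of 0.978 (0.906 to 1.06) and 0.984 (0.879 to 1.10). SIX4 was scattered thinly, since 10.9% of GelNB-CH and 10.8% of Matrigel otic cells had a UMI at equal depth, against 5.06% and 5.27% of mesenchymal cells.

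EYA1, the EYA gene mutated in branchio-oto-renal syndrome, was at 333 CPM (329 to 337) in GelNB-CH, against 258 CPM (253 to 262) in Matrigel otic cells. The gene spans chr8:71197433-71592025 on the minus strand. Neurons held 175 CPM (166 to 185) in GelNB-CH, against 301 CPM (290 to 314) in Matrigel. Mesenchyme held 115 and 113 CPM, and glia 43.6 and 73.6 CPM. Otic cells exceeded neurons 1.90-fold in GelNB-CH (1.80 to 2.01), whereas neurons exceeded otic cells 1.17-fold in Matrigel (1.12 to 1.22). The GelNB-CH to Matrigel ratio was 1.29 in otic cells (1.27 to 1.32), 1.01 in mesenchyme (0.978 to 1.05), 0.592 in glia (0.457 to 0.764) and 0.582 in neurons (0.544 to 0.622). The glial direction holds only for CDH19 cells below the COL1A2 minimum, because cells meeting both rules had 48.1 CPM in GelNB-CH, against 33.8 CPM in Matrigel, a ratio of 1.42 (1.22 to 1.66). At equal depth the share of glia with a UMI of EYA1 was 14.9% in GelNB-CH and 14.5% in Matrigel. The neuronal ratio was 0.873 among cells of 8000 to 16000 UMIs.

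EYA2, which acts with SIX-family factors in myogenic and placodal cells, was at 171 CPM (162 to 181) in GelNB-CH neurons and 314 CPM (302 to 327) in Matrigel neurons. The gene spans chr20:46894624-47188844 on the plus strand. Mesenchyme held 40.4 and 50.4 CPM, otic cells 6.22 and 5.95 CPM, and glia 6.23 and 4.36 CPM. Neurons exceeded mesenchyme 4.23-fold in GelNB-CH (3.95 to 4.53) and 6.24-fold in Matrigel (5.91 to 6.59), while otic cells and glia had overlapping intervals in both libraries. The share of otic cells with a UMI of EYA2 at equal depth was 2.85% in GelNB-CH and 2.90% in Matrigel, beside 3.40% and 1.61% of glia. No order between these lineages is read at this depth. For each of the other members the otic level exceeded the glial level in both libraries. The neuronal ratio was 0.544 (0.508 to 0.582), the smallest of the 28 ratios apart from a glial DACH2 ratio on 1 and 3 UMIs.

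EYA4, the EYA gene linked to late-onset deafness at the DFNA10 locus, was at 672 CPM (666 to 678) in GelNB-CH, against 466 CPM (459 to 472) in Matrigel otic cells. The gene spans chr6:133240598-133532120 on the plus strand. Mesenchyme held 203 CPM (200 to 207) and 149 CPM (145 to 152). Glia held 28 and 27.0 CPM, and neurons 21.7 and 21.8 CPM. Of the 178 UMIs behind the Matrigel neuronal level, 110 came from 18 neurons with 5 or 6 UMIs of STMN2, and the neuronal ratio of 0.991 became 2.88 with the marker minimums doubled and 1.81 with doublets kept. Otic cells exceeded mesenchyme 3.31-fold in GelNB-CH (3.24 to 3.37) and 3.13-fold in Matrigel (3.05 to 3.21), with glia and neurons far below both. The ratio between the libraries was 1.44 in otic cells (1.42 to 1.47) and 1.37 in mesenchyme (1.33 to 1.41), and it stayed above 1 in both lineages under every alternative of the processing. A UMI was found at equal depth in 83.9% of GelNB-CH and 75.5% of Matrigel otic cells, against 5.96% and 4.30% of glia.

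DACH1, a cofactor related to the SKI family and required for eye formation as dachshund in flies, was at 1319 CPM (1311 to 1328) in GelNB-CH, against 1247 CPM (1236 to 1257) in Matrigel otic cells. The gene spans chr13:71437966-71867192 on the minus strand. Neurons held 628 CPM (610 to 646) and 725 CPM (706 to 743). Mesenchyme held 187 and 171 CPM, and glia 43.6 and 47.5 CPM. The order of lineages was identical in both libraries, and otic cells exceeded neurons 2.10-fold in GelNB-CH (2.04 to 2.16) and 1.72-fold in Matrigel (1.67 to 1.77). The GelNB-CH to Matrigel ratio was 1.06 in otic cells (1.05 to 1.07), 1.10 in mesenchyme (1.07 to 1.13) and 0.867 in neurons (0.834 to 0.901). The neuronal ratio was 1.26 among cells of 8000 to 16000 UMIs, on the other side of 1.

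DACH2, the second DACH gene, was at 35.2 CPM (33.8 to 36.6) in GelNB-CH, against 52.4 CPM (50.3 to 54.6) in Matrigel otic cells. The gene spans chrX:86148458-86832604 on the plus strand. Mesenchyme held 9.87 and 6.41 CPM, neurons 9.17 and 3.93 CPM, and glia 0.445 and 1.31 CPM from 1 and 3 UMIs. The otic ratio of 0.671 (0.634 to 0.711) was the only otic ratio below 1 whose interval left out 1, and it became 1.32 among cells of 8000 to 16000 UMIs. The mesenchymal ratio was 1.54 (1.34 to 1.76) and the neuronal ratio 2.33 (1.51 to 3.67), where the neuronal levels were under the minimum of 10 CPM set for a comparison.

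No member met the rule for a difference between the libraries, a larger level of at least 10 CPM and a ratio of at least 2, in any of the 28 pairs of member and lineage. Of genes reaching 10 CPM, the same rule called 1.97% in otic cells, 1.02% in mesenchyme, 7.09% in glia and 7.92% in neurons, in either direction. A count of 0 among the members reaching 10 CPM is near these backgrounds. EYA2 in otic cells, DACH2 in mesenchyme, and SIX2 and DACH2 in neurons were too low to be called. So were SIX2, SIX4, EYA2 and DACH2 in glia. Of these, SIX2 (7.15) and DACH2 (0.340) in glia and DACH2 in neurons (2.33) had ratios past 2-fold, the glial ones on few UMIs. The interval of the ratio left out 1 for 17 of the 28 pairs. The median log2 ratio over all genes was -0.02 in otic cells, -0.02 in mesenchyme, -0.10 in glia and -0.01 in neurons. In glia that shift is of a size with the ratio of DACH1, which was 0.918 (0.692 to 1.22).

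**Figure D2:**
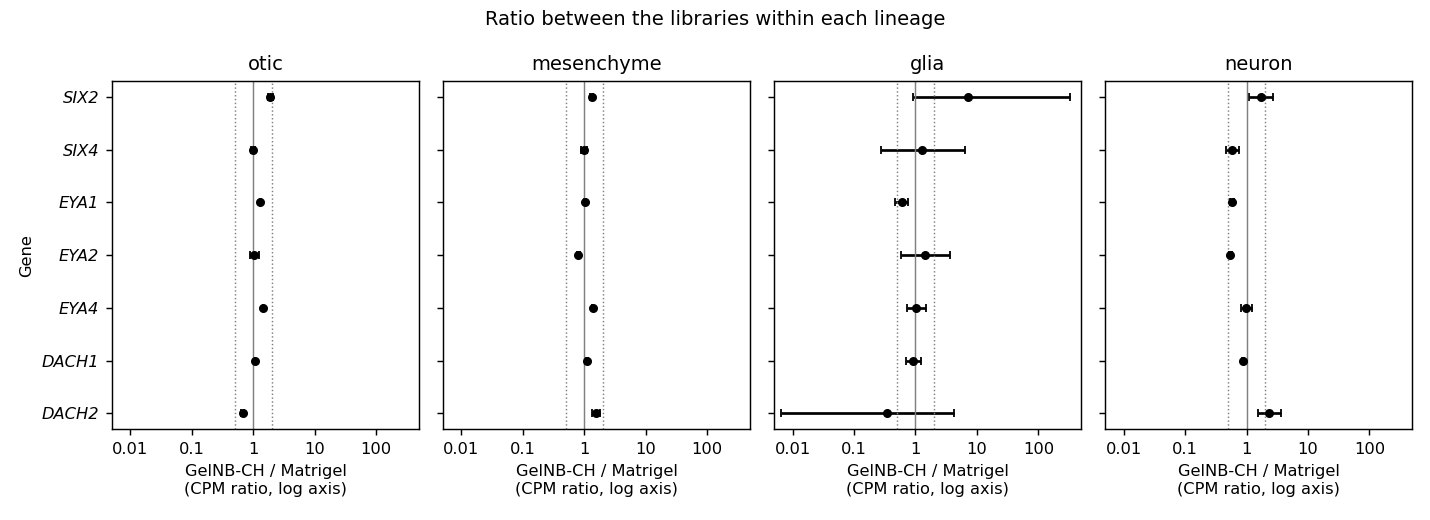
Ratio of GelNB-CH to Matrigel CPM for each member in each lineage (log axis) with exact 95% intervals, the solid line marking 1 and the dotted lines 0.5 and 2. SIX2 in otic cells (1.89) is the highest ratio outside glia and neurons, and SIX4, EYA1 and EYA2 in neurons lie together between 0.544 and 0.590, although SIX4 was at 1.12 among cells of 8000 to 16000 UMIs.

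In cells that met both the CDH19 and the COL1A2 rule, 3 members met the 2-fold rule, all higher in GelNB-CH. There the rule called 2.97% of genes in either direction and 1.97% as higher in GelNB-CH. EYA2 was at 15.7 CPM in GelNB-CH, against 2.63 CPM in Matrigel, a ratio of 5.98 (4.21 to 8.46). EYA4 was at 31.2 and 7.34 CPM, a ratio of 4.25 (3.39 to 5.33), and DACH1 at 50.4 and 23.8 CPM, a ratio of 2.12 (1.81 to 2.48). The levels of SIX2, SIX4 and DACH2 were under the minimum of 10 CPM. SIX2 was at 2.58 and 0.408 CPM from 11 UMIs each, a ratio of 6.33 (2.49 to 16.1). SIX4 was at 3.28 and 1.74 CPM, and DACH2 at 2.11 and 0.963 CPM. At equal depth 8 of 401 such cells in GelNB-CH and 16 of 1605 in Matrigel had a UMI of EYA2, while 32 and 37 had one of EYA4 and 49 and 126 one of DACH1. The highest EYA2 count in 1 of these GelNB-CH cells was 14 UMIs, beside a mean of 0.0524 per cell. In Matrigel the highest was 6, beside a mean of 0.0143. The EYA2 ratio thus rests largely on few cells, and its interval does not cover such clustering. The summed level of the 7 glial markers was 3367 CPM in GelNB-CH, against 5030 CPM in Matrigel in these cells, that of the 8 mesenchymal markers 1198 and 1237 CPM and that of the 9 otic markers 213 and 240 CPM. The 6 muscle markers summed to 94.8 CPM in GelNB-CH, against 13.7 CPM in Matrigel, with 1 and 3 of them at 0, and the 5 melanocyte markers to 105 and 23.9 CPM, with none at 0. The part of these markers in the result was not tested.

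Cells that met none of the 4 rules numbered 4125 in GelNB-CH and 1429 in Matrigel. There EYA2 was at 48.4 CPM in GelNB-CH, against 168 CPM in Matrigel, a ratio of 0.288 (0.271 to 0.307), and it was the only member past the 2-fold rule, which called 3.66% of genes. EYA1 was next at 111 and 216 CPM, a ratio of 0.514 (0.491 to 0.538). Cells of this kind with a UMI of PAX6, an eye and forebrain factor, were 1.55% of them in GelNB-CH and 5.11% in Matrigel. In those PAX6 cells EYA2 was at 226 CPM in GelNB-CH, 5.03-fold above the other unassigned cells (4.22 to 5.95), and at 679 CPM in Matrigel, 5.20-fold above them (4.78 to 5.65). Without a UMI of PAX6, EYA2 was at 44.9 CPM in GelNB-CH, against 130 CPM in Matrigel. SIX4 was also higher in PAX6 cells of both libraries, 2.47-fold (1.45 to 3.96) and 2.17-fold (1.53 to 3.00), and EYA4 was lower, 0.300-fold (0.213 to 0.411) and 0.363-fold (0.300 to 0.437). Among unassigned cells the summed cartilage markers were at 6031 CPM in GelNB-CH, against 4011 CPM in Matrigel, those of CNS progenitors at 642 and 323 CPM, of melanocytes at 94.2 and 11.9 CPM, of mesenchyme at 652 and 330 CPM, of otic cells at 245 and 405 CPM and of hair cells at 130 and 268 CPM. The part of these markers in the EYA2 ratio was not tested.

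Otic cells were not uniform. OTX2, a homeobox gene of the developing inner ear and forebrain, was detected in 28.6% of GelNB-CH and 19.3% of Matrigel otic cells, and at equal depth in 16.9% and 9.93%. OTX2-positive cells held more SIX2, EYA1 and EYA4 and less DACH1 and DACH2 than OTX2-negative cells, in both libraries. SIX2 was at 42.3 CPM in OTX2-positive and 17.6 CPM in OTX2-negative cells of GelNB-CH, a fold of 2.41 (2.20 to 2.64), and at 33.1 and 8.44 CPM in Matrigel, a fold of 3.92 (3.33 to 4.63). EYA1 was at 425 and 288 CPM in GelNB-CH, a fold of 1.47, and at 354 and 232 CPM in Matrigel, a fold of 1.52. EYA4 was at 787 and 615 CPM in GelNB-CH and at 584 and 434 CPM in Matrigel, with folds of 1.28 and 1.34. These 3 members therefore shared a direction that did not depend on the library.

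The DACH genes had the other direction. DACH1 was at 980 CPM in OTX2-positive and 1487 CPM in OTX2-negative cells of GelNB-CH, a fold of 0.659 (0.649 to 0.669), and at 955 and 1324 CPM in Matrigel, a fold of 0.721 (0.704 to 0.737). DACH2 was at 22 and 41.7 CPM in GelNB-CH, a fold of 0.529 (0.480 to 0.582), and at 23.1 and 60.2 CPM in Matrigel, a fold of 0.384 (0.332 to 0.443). At equal depth the order was the same, with SIX2 at 55.8 against 20.9 CPM in GelNB-CH and 48.1 against 12.9 CPM in Matrigel, and DACH1 at 787 against 1310 CPM and 747 against 1185 CPM. Within OTX2-positive cells the SIX2 ratio of GelNB-CH to Matrigel was 1.28 (1.12 to 1.46) and within OTX2-negative cells 2.08 (1.82 to 2.39), beside 1.89 over all otic cells. The DACH2 ratio was 0.953 (0.811 to 1.12) within OTX2-positive and 0.692 (0.651 to 0.736) within OTX2-negative cells.

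**Figure D3:**
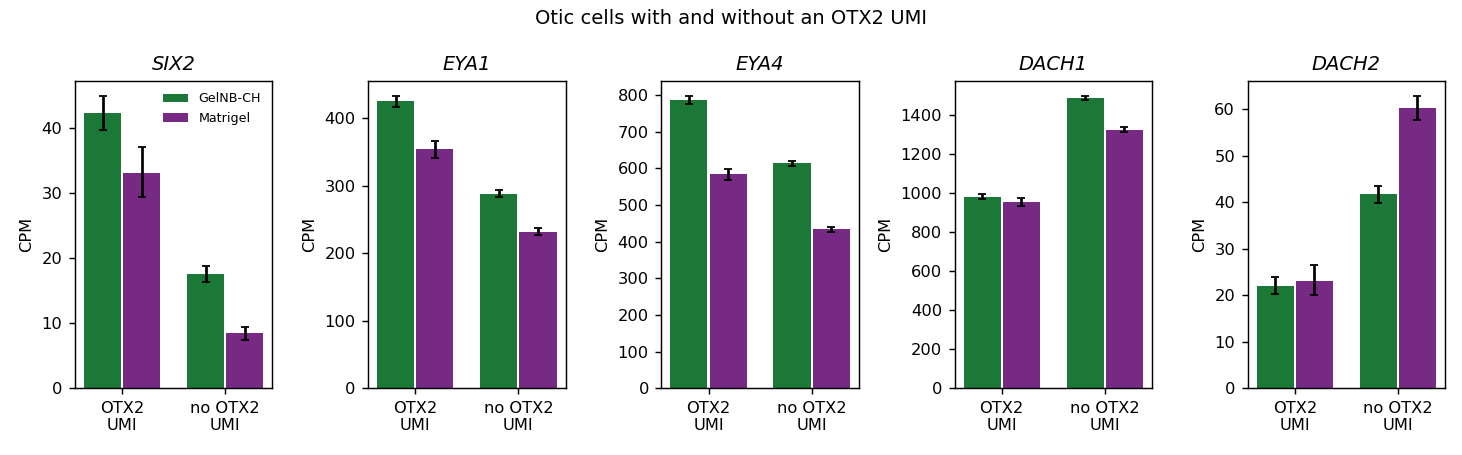
Level (CPM, axes from 0) of 5 members in otic cells with and without a UMI of OTX2, in GelNB-CH (green) and Matrigel (purple), with exact Poisson 95% intervals. SIX2, EYA1 and EYA4 are higher with OTX2 in both libraries, and DACH1 and DACH2 are lower.

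Proliferating otic cells, taken as those with at least 2 UMIs of the topoisomerase gene TOP2A, made up 9.88% of GelNB-CH and 10.2% of Matrigel otic cells. DACH1 was at 931 CPM in them and 1389 CPM in the other otic cells of GelNB-CH, a fold of 0.671 (0.657 to 0.685), and at 1110 and 1273 CPM in Matrigel, a fold of 0.872 (0.851 to 0.893). DACH2 was lower as well, 0.556-fold (0.484 to 0.636) in GelNB-CH and 0.376-fold (0.317 to 0.444) in Matrigel. SIX2 was higher, 1.70-fold (1.53 to 1.89) and 1.28-fold (1.03 to 1.57). These cells were also deeper, with a median of 17109 UMIs in GelNB-CH and 27014 in Matrigel, against 9501 and 15663 in the other otic cells. At equal depth the directions were the same, with DACH1 at 770 against 1255 CPM in GelNB-CH and 1023 against 1148 CPM in Matrigel, and DACH2 at 20.9 against 30.9 CPM and 19.3 against 43.6 CPM. SIX2 was then at 46.3 against 25.3 CPM in GelNB-CH and 31.6 against 15.5 CPM in Matrigel, a wider gap in Matrigel than without thinning.

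Otic cells with at least 2 UMIs of WIF1, a secreted WNT inhibitor, were 1.36% of GelNB-CH and 8.03% of Matrigel otic cells. In them SIX2 was 0.308-fold (0.148 to 0.568) the level of other otic cells in GelNB-CH and 0.246-fold (0.140 to 0.403) in Matrigel. DACH2 was 0.225-fold (0.108 to 0.415) and 0.232-fold (0.175 to 0.301). DACH1 was higher in them, at 1742 CPM in GelNB-CH, against 1404 CPM in Matrigel, with folds of 1.33 (1.27 to 1.39) and 1.14 (1.11 to 1.17). At equal depth WIF1 cells were 0.452% and 2.62% of otic cells, and DACH1 was at 1562 CPM (1354 to 1792) in them and 1220 CPM in the others in GelNB-CH, but at 939 CPM (829 to 1060) and 1147 CPM in Matrigel. The DACH1 direction in WIF1 cells of Matrigel was therefore the other one at equal depth. Fewer cells meet the WIF1 limit after thinning, so depth and the change of cells cannot be told apart here. DACH2 rested on 1 UMI in GelNB-CH and 0 in Matrigel in the thinned WIF1 cells.

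The members also shared cells unequally. In otic cells thinned to 5000 UMIs, SIX2 was detected in 9.81% of DACH1-positive and 21.6% of DACH1-negative cells of GelNB-CH, and in 5.90% and 12.9% in Matrigel. EYA1 was detected in 65.8% of EYA4-positive and 44.1% of EYA4-negative cells in GelNB-CH, and in 62.4% and 42.1% in Matrigel. SIX2 was detected in 12.8% of EYA1-positive and 9.17% of EYA1-negative cells of GelNB-CH, and in 8.81% and 4.18% in Matrigel. The share of cells with SIX2 was thus higher where EYA1 was detected and lower where DACH1 was detected. DACH2 was found in 5.69% of DACH1-positive and 2.38% of DACH1-negative cells in GelNB-CH, and in 8.06% and 1.75% in Matrigel. DACH2 was detected in 4.64% of EYA4-positive and 8.30% of EYA4-negative cells of GelNB-CH, and in 5.83% and 11.5% in Matrigel. Detection of SIX4 barely moved with DACH1, at 10.6% against 12.4% in GelNB-CH and 10.8% against 10.5% in Matrigel. These shares describe cells of 1 library each and carry no test.

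**Figure D4:**
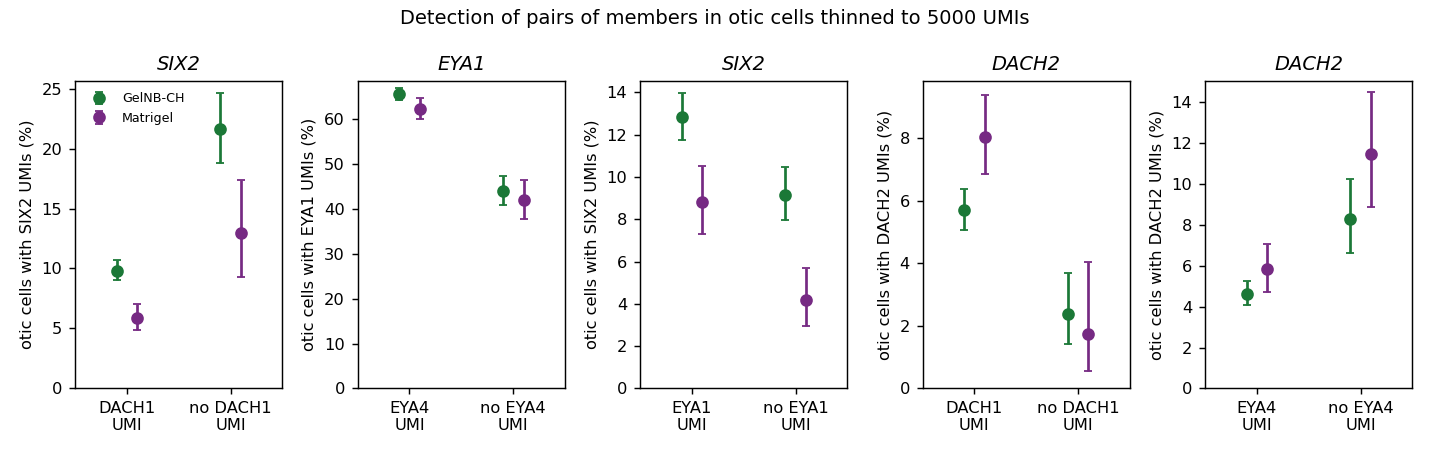
Share of otic cells (%, cells thinned to 5000 UMIs) with a UMI of the gene named above each panel, among cells with and without a UMI of the gene named below it, in GelNB-CH (green) and Matrigel (purple), with exact Clopper-Pearson 95% intervals. SIX2 lies lower among DACH1-positive cells, at 9.81% and 5.90%, and EYA1 lies higher among EYA4-positive cells, at 65.8% and 62.4%.

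DACH2 was carried by few otic cells, as was EYA2. At equal depth 5.23% of GelNB-CH and 7.21% of Matrigel otic cells had a UMI of DACH2, with up to 37 and 19 UMIs in a cell. The 5% of cells with most DACH2 held 98.5% of its UMIs in GelNB-CH and 89.6% in Matrigel, beside 50.4% and 50.8% for SIX4, which was detected in a larger share of cells. Otic cells with at least 3 UMIs of DACH2, a limit chosen after this spread was seen, made up 2.84% of the otic cells of GelNB-CH (174 cells) and 6.54% of those of Matrigel (144 cells). They were deeper, with medians of 16008 and 25732 UMIs against 9898 and 15977 in other otic cells. In these cells DACH1 was at 2153 CPM in GelNB-CH, 1.68-fold above other otic cells, and at 2261 CPM in Matrigel, 2.00-fold above them. SIX2 was lower in them, 0.525-fold in GelNB-CH and 0.120-fold in Matrigel. Their leading genes by the smaller fold of both libraries were KRT17, an epithelial keratin, at 9.71-fold in GelNB-CH and 9.63-fold in Matrigel, and DCC, the netrin receptor, at 9.62-fold and 9.51-fold, followed by CYTOR, CEBPD, ITPKC and the stress-response factor ATF3 at between 6.48-fold and 11.3-fold. Since DACH2 counts chose these cells, the folds describe them and support nothing further.

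Neurons differed between the libraries in composition. NEUROD1, a factor of sensory neuron precursors, was detected in 34.9% of GelNB-CH and 81.6% of Matrigel neurons, and at equal depth in 35.0% and 73.4%. The level of EYA2 in NEUROD1-positive neurons was 332 CPM in GelNB-CH, against 357 CPM in Matrigel, a ratio of 0.929 (0.865 to 0.997), beside 0.544 over all neurons. In NEUROD1-negative neurons it was 39.2 and 39.4 CPM, a ratio of 0.995 (0.707 to 1.43). EYA1 was at 301 and 336 CPM with NEUROD1, a ratio of 0.894 (0.830 to 0.963), and at 72.6 and 76.9 CPM without it, a ratio of 0.944 (0.738 to 1.22). EYA1 and EYA2 thus stood nearer between the libraries within each kind of neuron than over all neurons. SIX4 was at 31.5 and 30.5 CPM with NEUROD1, a ratio of 1.04 (0.813 to 1.31), and at 3.63 and 8.24 CPM without it, a ratio of 0.440 (0.181 to 1.14) on few counts. The part of this composition in the ratios over all neurons was not tested.

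EYA2 was 8.46-fold higher with NEUROD1 than without it in GelNB-CH (7.17 to 10.0) and 9.07-fold in Matrigel (6.71 to 12.6). For EYA1 these folds were 4.14 (3.64 to 4.73) and 4.37 (3.52 to 5.50), and for SIX4 8.69 (5.04 to 16.1) and 3.70 (1.91 to 8.20). DACH1 was at 901 CPM in GelNB-CH, against 775 CPM in Matrigel neurons with NEUROD1, and at 404 and 399 CPM without it. EYA4 did not share this pattern. It was at 23.3 CPM in GelNB-CH, against 7.65 CPM in Matrigel with NEUROD1, and at 20.3 and 114 CPM without it. In Matrigel, EYA4 reached 461 CPM in the 18 neurons just inside the STMN2 rule. At equal depth, with NEUROD1 read on the thinned counts, NEUROD1-negative cells were 65.0% of GelNB-CH and 26.6% of Matrigel neurons. They held 80.2 CPM of EYA1 and 56.5 CPM of EYA2 in GelNB-CH, against 206 and 127 CPM in Matrigel. Thinning can remove the only NEUROD1 UMIs of a cell, so these are not the same cells as without thinning. The near equality without NEUROD1 was not seen in them, and the part of depth in that was not tested.

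**Figure D5:**
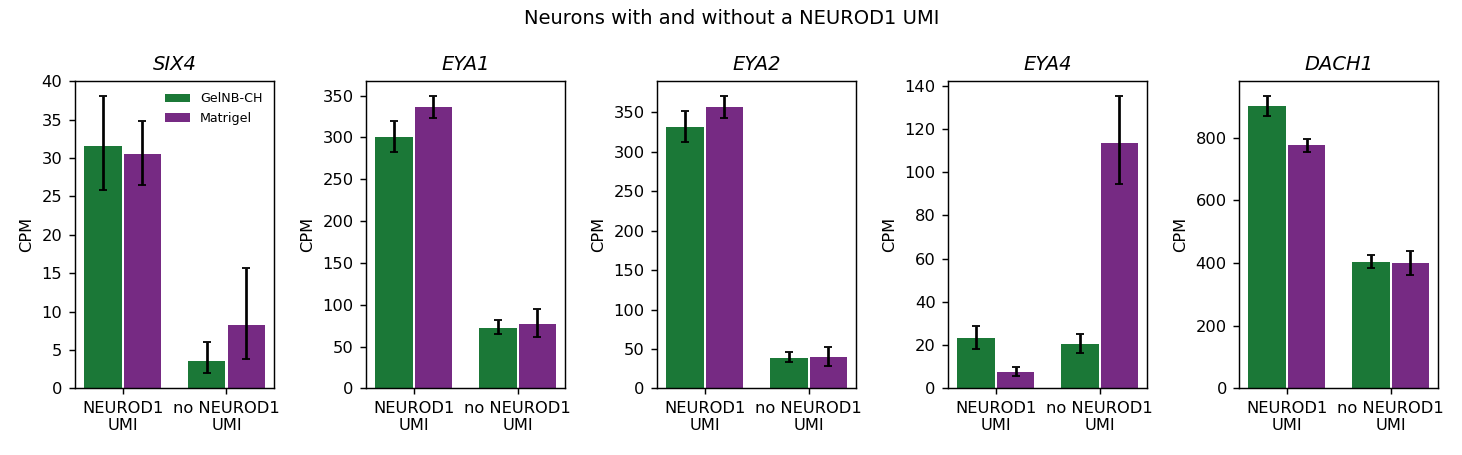
Level (CPM, axes from 0) of 5 members in neurons with and without a UMI of NEUROD1, in GelNB-CH (green) and Matrigel (purple), with exact Poisson 95% intervals. EYA2 lies at 332 and 357 CPM with NEUROD1 and at 39.2 and 39.4 CPM without it.

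A second neuronal marker, LHX9, a LIM-homeobox gene, was detected in 26.0% of GelNB-CH neurons and 4.94% of Matrigel neurons. In GelNB-CH the LHX9-positive neurons had lower EYA2, at 89.7 against 195 CPM, lower EYA1, at 111 against 194 CPM, and lower SIX4, at 4.63 against 19.7 CPM. In Matrigel 25 neurons were LHX9-positive, and in them EYA2 was at 224 against 319 CPM and EYA1 at 137 against 309 CPM. At equal depth the Matrigel values of EYA2 were 55.6 against 331 CPM, on 5 UMIs in 18 LHX9-positive cells. Detection of EYA1 and EYA2 went together in neurons at equal depth, EYA2 being found in 52.9% of EYA1-positive and 24.3% of EYA1-negative cells in GelNB-CH and in 66.7% and 43.8% in Matrigel. EYA2 was likewise found in 44.3% of DACH1-positive and 8.78% of DACH1-negative neurons in GelNB-CH, and in 62.6% and 33.0% in Matrigel.

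In mesenchyme, DACH1 moved with PAX3, a factor of neural crest and dermomyotome. PAX3-positive cells were 13.3% of GelNB-CH and 17.5% of Matrigel mesenchyme, and DACH1 was at 336 CPM in them and 161 CPM in the others in GelNB-CH, a fold of 2.09 (2.00 to 2.18). In Matrigel it was at 322 and 136 CPM, a fold of 2.38 (2.28 to 2.48). SIX2 had the other direction, 0.642-fold (0.556 to 0.737) in GelNB-CH and 0.567-fold (0.483 to 0.662) in Matrigel. EYA4 was 0.554-fold (0.520 to 0.591) in GelNB-CH and 0.910-fold (0.858 to 0.964) in Matrigel. Mesenchymal cells with at least 2 UMIs of COL9A1, a cartilage collagen, held somewhat more SIX2 than the others, 1.25-fold (1.14 to 1.36) and 1.18-fold (1.07 to 1.30), and less DACH2, 0.407-fold (0.331 to 0.496) and 0.681-fold (0.540 to 0.856). At equal depth SIX2 was at 43.4 against 38.1 CPM in GelNB-CH and 33.3 against 30.3 CPM in Matrigel, with overlapping intervals in both. DACH2 was then still lower, at 5.57 against 11.7 CPM and 3.80 against 7.51 CPM. The DACH1 gap by PAX3 was narrower in Matrigel among cells below the COL9A1 limit, without thinning. There DACH1 was at 193 CPM in PAX3-positive and 140 CPM in PAX3-negative cells of Matrigel, against 343 and 163 CPM in GelNB-CH.

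Among glia, cells with a UMI of GPR17, a receptor of oligodendrocyte precursors, had little DACH1, at 7.32 CPM in GelNB-CH, against 6.67 CPM in Matrigel from 4 UMIs each, against 55.3 and 61.9 CPM in the other glia. EYA1 was also lower with GPR17, at 18.3 against 51.8 CPM in GelNB-CH and 36.7 against 86.7 CPM in Matrigel. GPR17-positive glia numbered 64 in GelNB-CH and 50 in Matrigel, so these levels rest on few counts.

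Hair cell-like cells, in which at least 8 of the 16 listed markers had a UMI, numbered 15 for GelNB-CH and 12 for Matrigel, and 3 and 2 of them met the otic rule. EYA4 was at 1114 CPM (982 to 1259) in GelNB-CH, against 1082 CPM (981 to 1191) in Matrigel, with a UMI in 14 of 15 and 12 of 12 cells. EYA1 was at 444 and 456 CPM, and DACH1 at 731 and 835 CPM. DACH2 was at 200 CPM (147 to 267) and 175 CPM (136 to 222), and EYA2 at 131 CPM (88.1 to 186) and 97.9 CPM (69.3 to 134), both above their otic levels. Most hair cell-like cells, 12 in GelNB-CH and 8 in Matrigel, met none of the 4 rules. All unassigned cells together held 6.67 and 10.5 CPM of DACH2, but 48.4 and 168 CPM of EYA2. Against them EYA2 was thus higher in hair cell-like cells of GelNB-CH and lower in those of Matrigel. The ratio interval included 1 for each of the 7 members in hair cell-like cells. With so few cells it was also wide, from 0.877 to 1.20 for EYA4 and from 0.207 to 3.79 for SIX2.

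Droplets also take up free RNA, for which OC90 gives a scale. OC90 itself was at 27.0 CPM in GelNB-CH, against 13.2 CPM in Matrigel mesenchyme, at 28.9 and 14.4 CPM in glia, and at 29.5 and 12.1 CPM in neurons, which is 0.345% to 0.664% of its otic levels of 4441 and 3524 CPM. Members carried in the same ratio as OC90 would give at most 8.76 CPM in these lineages, the value for DACH1 in GelNB-CH neurons. EYA4 in mesenchyme would be at 4.09 CPM in GelNB-CH, against 1.75 CPM in Matrigel, below the measured 203 and 149 CPM. DACH2 in glia would be at 0.229 CPM in GelNB-CH, against 0.214 CPM in Matrigel, beside a measured 0.445 CPM (0.0113 to 2.48) and 1.31 CPM (0.270 to 3.82). The non-otic OC90 levels are limited by the otic rule itself, so these figures are only an approximate scale.

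The marker rules left cells on both sides of each limit. Cells with 3 or 4 UMIs of OC90, just outside the otic rule, had 684 CPM of EYA4 and 933 CPM of DACH1 in GelNB-CH and 592 and 912 CPM in Matrigel. Cells with 5 or 6 UMIs, just inside it, had 718 CPM of EYA4 and 1024 CPM of DACH1 in GelNB-CH and 449 and 1057 CPM in Matrigel. Cells just outside the mesenchymal rule had 31.8 CPM of SIX2 in GelNB-CH and 18.0 CPM in Matrigel, and those just inside had 38.0 and 19.4 CPM. Cells just outside the neuronal rule had 352 and 326 CPM of EYA2, and those just inside 250 and 398 CPM, and for glia the DACH1 levels were 128 and 136 CPM outside and 37.0 and 40.6 CPM inside. Within otic cells, those with at least 100 UMIs of OC90 had 1874 CPM of DACH1 in GelNB-CH and 1558 CPM in Matrigel, against 1057 and 859 CPM in those with 20 to 49, and 17.3 and 8.17 CPM of SIX2 against 29.8 and 19.4 CPM. The cells with most OC90 were also the deepest, with medians of 19744 and 27404 UMIs against 8606 and 14080.

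Other genes of the network came from 5 lists, namely the remaining SIX-family and EYA genes, PAX partners, preplacodal and otic regulators, cofactors of the complexes, and targets known from other systems. Of their 68 genes, 41 reached 10 CPM in otic cells, and 3 met the 2-fold rule there, 2 higher in GelNB-CH and 1 higher in Matrigel. The same rule called 1.97% of all genes in otic cells. The first of them, SIX3, a forebrain and eye factor, was at 12.4 CPM in GelNB-CH, against 4.15 CPM in Matrigel, a ratio of 2.99 (2.55 to 3.53). ISL1, a LIM-homeobox target of the SIX-family and EYA complex in the heart field of mice, was at 13.3 and 5.67 CPM, a ratio of 2.34 (2.03 to 2.70). SPRY1, an inhibitor of FGF signalling, was at 11.7 and 28.1 CPM, a ratio of 0.415 (0.380 to 0.454). The list medians of the log2 ratio lay between -0.32 and -0.07, beside -0.02 over all genes.

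No PAX partner or cofactor of the lists met the 2-fold rule between the libraries in otic cells. The median log2 ratio of the 14 cofactors was -0.18, beside a median of -0.02 and a 10th percentile of -0.32 over all genes. PAX2, the placodal paired-box factor, was at 362 CPM in GelNB-CH, against 450 CPM in Matrigel, a ratio of 0.803 (0.788 to 0.818), and PAX8 at 7.46 and 9.06 CPM. The cofactor SOBP was at 184 and 166 CPM, a ratio of 1.11, and MCRS1 at 24.4 and 23.9 CPM, a ratio of 1.02. The corepressor gene HDAC1, a histone deacetylase through which DACH proteins act, had a ratio of 0.771. Among regulators, SOX9 had a ratio of 1.35, TFAP2A of 1.29 and TBX2 of 0.678, and among the remaining family members EYA3 had a ratio of 0.995 and SIX5 of 0.869. The target genes EZR, CCND1 and CDKN1A had ratios of 0.977, 0.763 and 0.560.

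In neurons, 12 of 37 listed genes above the minimum met the 2-fold rule, 5 higher in GelNB-CH and 7 higher in Matrigel, against 7.92% of all genes. Named after their values were seen, NEUROD1 was at 291 CPM in GelNB-CH, against 589 CPM in Matrigel, and ISL1 at 139 and 323 CPM, both lower in GelNB-CH. NEUROD1 is the marker whose share of neurons differed between the libraries above, so its level is no separate observation. TFAP2B was at 283 and 69.1 CPM and TFAP2A at 74.0 and 29.2 CPM, higher in GelNB-CH. In mesenchyme 1 of 37 listed genes met the rule, against 1.02% of all genes, namely SPRY1, at 13.4 and 28.1 CPM. In glia 3 of 32 met it, against 7.09% of all genes. They were PAX2 at 3.12 and 25.7 CPM, DLX5 at 12.5 and 2.61 CPM and SOX9 at 14.7 and 2.18 CPM. Counts of 1 and 3 are too small to set apart from these shares, and these 4 genes are named for their small number.

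Across 22 marker-defined groups of cells in both libraries, the likeness of log2(CPM + 1) profiles described which members varied together. Groups of the same library share its depth and some groups share a lineage, so no p is given. SIX4 and EYA1 had r = 0.90, EYA1 and DACH1 r = 0.89, SIX4 and DACH1 r = 0.85, and DACH1 and DACH2 r = 0.82. EYA2 and EYA4 had r = -0.25, and EYA2 and SIX2 r = 0.04. Among 10327 genes ranked, the profiles most like SIX2 were ACTN1, SULT1E1 and EDN3 (r = 0.91, 0.90 and 0.90), and those most like SIX4 were ADAMTS19, GPT2 and PRPF4 (r = 0.95, 0.91 and 0.90). For EYA1 they were ZNF33A and SINHCAF (r = 0.95 and 0.92), for EYA2 RYR3, BRINP1 and TRHDE (r = 0.97, 0.96 and 0.95), and for EYA4 USH1C, LTBP1 and LNX2 (r = 0.96, 0.95 and 0.94). For DACH1 they were SHISA6, IRX2 and ZNF33A (r = 0.95, 0.95 and 0.94), and for DACH2 IRX3, NTNG1 and CDS1 (r = 0.91, 0.90 and 0.90). ZNF33A was thus near the top for both EYA1 and DACH1.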

How the data were processed

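The 2 libraries come from the 3.1 version of the 10x 3' assay. The deposited values are whole-number UMI counts of genes in called cells, without normalisation. They were made with Cell Ranger, for which the labels' protocols name version 4.0.0 while 7.1.0 stands in the file headers, and STAR and GRCh38 (hg38) are named in the submitters' processing notes. The annotation version and the counting of intronic reads are not given in the sources used here.

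Cells with at least 1000 genes and at most 15% mitochondrial UMIs were kept. Scrublet in scanpy 1.11.5, at an expected 0.8% per 1000 barcodes, led to the removal of doublets, 14.2% of the GelNB-CH barcodes and 6.55% of the Matrigel ones. Libraries held 247006223 and 178672097 UMIs before filtering. Raw counts were summed over the cells of a lineage and scaled to CPM. Levels have exact Poisson intervals, ratios exact conditional binomial intervals and shares Clopper-Pearson intervals, all at 95% and for counting error only. Shares were computed on cells thinned to 5000 UMIs where stated, so that 1939 shallower GelNB-CH cells and 418 Matrigel ones were left out. Lineages kept their unthinned rules, while marker limits within a lineage were read on the thinned counts at equal depth. The groups are 1 library each, so no test was made. The ratio interval was tried on simulated Poisson counts only. These leave out the clustering of UMIs in few cells, so the trial cannot show how the interval performs on these data. Computation used scipy 1.17.1 and numpy 2.4.6, with pandas 2.3.3 and matplotlib 3.10.9, in Python 3.11.15. An alternative took TMM factors from edgeR 4.0.16 under R 4.3.3.

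All 7 members are named. From each list up to 2 genes with the largest and 2 with the smallest otic ratio are named where the larger otic level was at least 5 CPM, and for each member the 3 genes with the most similar profile among genes reaching 20 CPM. Some genes that these rules would name are not reported here. Members, lists and marker limits were chosen with earlier results of these data known. Promoter windows matched 5 of the 7 members.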

Additional observations from a re-analysis of the deposited data

Results flagged for a closer look

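In the main processing, 3 members had a ratio of GelNB-CH to Matrigel on opposite sides of 1 in different lineages. The interval left out 1 in each. With 1 library per group these differences between lineages were not tested. EYA1 had a ratio of 1.29 in otic cells but 0.592 in glia and 0.582 in neurons. The glial ratio was 1.26 with glia taken whatever their COL1A2. It also rests on few cells. At equal depth the 5% of Matrigel glia with most EYA1 held 66.7% of its UMIs, with up to 14 in a cell. In GelNB-CH they held 54%, with up to 4 in a cell. Among cells of 8000 to 16000 UMIs the EYA1 ratio was 1.10 in otic cells and 0.873 in neurons, still on opposite sides of 1. DACH1 had a ratio of 1.06 in otic cells and 1.10 in mesenchyme but 0.867 in neurons. Among cells of 8000 to 16000 UMIs these DACH1 ratios were 1.28, 1.21 and 1.26, all above 1. DACH2 had a ratio of 1.54 in mesenchyme and 2.33 in neurons but 0.671 in otic cells. Among cells of 8000 to 16000 UMIs these DACH2 ratios were 1.32, 1.64 and 1.32, all above 1. The mesenchymal and neuronal levels of DACH2 were under the CPM minimum set for a comparison. The part of depth in the DACH1 and DACH2 contrasts was not tested.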

How the results depend on the processing

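In all, 12 alternatives were tried, 1 of them (glia as all CDH19 cells, whatever their COL1A2) chosen after seeing the data. The highest lineage was shared for 5 of 7 members in the main processing and in each alternative except cells of like depth, 8000 to 16000 UMIs, where it was shared for 7. The count of members at least 2-fold apart was 0 in the main processing and remained 0 with doublets kept, no cell filter, TMM factors, a CPM minimum of 20 and a pseudocount of 1. It was 2 with the marker minimums doubled, 1 with cells counted in each lineage whose rule they meet, 1 in cells of like depth, 1 in thinned cells, 3 with cells weighted equally, 3 with no CPM minimum and 2 with glia taken whatever their COL1A2. The cause of these changes was not tested, except that dropping the minimum admits low levels. The count of listed genes at least 2-fold apart in otic cells was 3, and became 1 with a CPM minimum of 20 and 10 with none. Of the 17 ratios whose interval left out 1, 11 kept their direction in every alternative. The 6 that did not were SIX2, SIX4 and DACH1 in neurons (0.960, 1.12 and 1.26) and DACH2 in otic cells (1.32) at like depth, EYA1 in glia (1.21 by every rule met, 1.26 whatever the COL1A2) and EYA2 in mesenchyme (1.02 by every rule met). SIX2, SIX4 and DACH1 in neurons and DACH2 in otic cells kept their direction in every other alternative, thinned cells included. No paired analysis was possible because each group is 1 library. Counts limit the glial values of SIX2, SIX4 and DACH2, which had at most 7 UMIs in a library.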
